A study of Mus musculus with 7 samples.

Results

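Interferon-inducible GTPases of the GBP and IRG families were followed in splenic cDC1, the conventional dendritic cells that are best at cross-presenting antigen to CD8 T cells. The genes were 9 family members chosen by symbol, namely Gbp2, Gbp3, Gbp4, Gbp5, Gbp7, Irgm1, Irgm2, Igtp and Iigp1. The platform annotation listed 8 of the 9, each with 1 probe set, among 19505 named genes; Gbp5 was not listed there and has no value here. The cells were sorted from spleens of C57BL/6 mice bearing B16-OVA tumors, a mouse melanoma line that expresses ovalbumin. The 4 KO arrays came from mice carrying a CD11c-Cre transgene and a floxed Opa1 gene, and the 3 WT arrays from mice labelled wild type; all 7 share the tumor and the strain. Opa1 encodes a mitochondrial GTPase needed for fusion of the inner membrane, and CD11c is expressed by dendritic cells at large and by some macrophages, so that the deletion is not limited to cDC1. The labels do not say whether the WT mice carried the Cre or the floxed allele, how old the mice were, or whether each array was a separate mouse, so that every p-value reflects array-to-array spread, which may be technical. RNA was measured on whole-transcript Affymetrix arrays as log2 values summarised with RMA, and every level below is such a value.

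Guanylate binding proteins (GBPs) are large dynamin-like GTPases that assemble on the membranes of pathogen vacuoles and on bacteria in the cytosol. Immunity-related GTPases (IRGs) fall into effectors such as Iigp1, which load onto and disrupt vacuoles, and into the regulators Irgm1, Irgm2 and Igtp, which sit on the cell's own membranes and hold the effectors inactive there. Both families are expressed at a low level at rest and are strongly induced by interferon gamma, and in part by type I interferon, through transcription factors that bind GAS and ISRE elements near their starts.

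The stretches just before the starts of the 6 measured members that had an entry among the RefSeq promoters (GRCm38.p6) are shown because they carry those elements. Capitals mark an ISRE core, spelled GAAANNGAAA or on the other strand TTTCNNTTTC, and a GAS element, spelled TTCNNNGAA on both strands. Each run is 130 bases, written 5′ to 3′ in the direction of the gene and ending on the base before its start.
Gbp2 (chr3:142620533-142620662, + strand): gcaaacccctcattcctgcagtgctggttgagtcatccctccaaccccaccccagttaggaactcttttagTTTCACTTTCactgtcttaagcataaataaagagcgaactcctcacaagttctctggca
Gbp3 (chr3:142559914-142560043, + strand): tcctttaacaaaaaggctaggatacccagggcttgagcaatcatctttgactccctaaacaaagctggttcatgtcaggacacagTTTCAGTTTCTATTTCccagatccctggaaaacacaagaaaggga
Gbp7 (chr3:142530206-142530335, + strand): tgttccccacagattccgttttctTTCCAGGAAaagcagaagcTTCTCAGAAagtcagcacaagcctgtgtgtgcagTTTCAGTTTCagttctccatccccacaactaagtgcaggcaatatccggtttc
Irgm1 (chr11:48871421-48871550, - strand): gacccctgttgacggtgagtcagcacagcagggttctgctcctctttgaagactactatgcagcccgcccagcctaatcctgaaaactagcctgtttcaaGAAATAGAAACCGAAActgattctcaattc
Irgm2 (chr11:58214847-58214976, + strand): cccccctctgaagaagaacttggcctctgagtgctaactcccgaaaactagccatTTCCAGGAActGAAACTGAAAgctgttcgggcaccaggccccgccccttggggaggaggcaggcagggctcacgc
Igtp (chr11:58199426-58199555, + strand): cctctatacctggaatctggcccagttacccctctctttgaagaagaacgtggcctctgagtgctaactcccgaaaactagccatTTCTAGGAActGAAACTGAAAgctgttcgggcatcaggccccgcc

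Each of these 6 stretches held at least 1 ISRE core. In Gbp3 and in Irgm1 a pair of ISRE cores overlapped by 4 bases, so that the letters run on as 1 block. Gbp7 held 2 GAS elements, and Irgm2 and Igtp each held 1, which stood 2 bases before the ISRE core in both genes. Igtp and Irgm2 are neighbours, and their upstream windows shared an identical run of 55 bases. A further RefSeq start of Gbp3 had neither motif in its 250 upstream bases. Of the 32851 upstream windows of 250 bases in the promoter table, 2.98% held an ISRE core, 7.02% a GAS element and 0.332% both. A match describes these letters and does not show that a factor was bound in these cells.

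The arrays labelled WT 1 and WT 2 stood apart from the other 5 in genes that mark cell types. The 13 cDC1 markers had a mean level of 11.95 to 12.04 on the KO arrays, 11.15 on WT 1, 9.52 on WT 2 and 11.92 on WT 3. Clec9a, the cDC1 receptor for dead cells, read 12.11, 12.03, 12.08 and 12.05 on KO 1 to 4, and 10.46, 7.29 and 12.10 on WT 1 to 3. Of 15 melanocyte lineage markers 14 had a lower mean in KO, and the list mean was 7.56 to 8.24 on the KO arrays, 11.41 on WT 1, 11.67 on WT 2 and 9.22 on WT 3. The 8 cDC2 markers averaged 7.99 to 8.55 on the KO arrays, and 8.16, 10.41 and 8.75 on WT 1 to 3. The 8 monocyte and macrophage markers averaged 8.23 to 8.77 on the KO arrays, and 8.23, 9.96 and 9.16 on WT 1 to 3. Fewer cells of a type and less RNA per cell cannot be told apart in these samples. Opa1 itself had a mean of 7.47 ± 0.62 (SD, n = 4) in KO and 8.69 ± 0.51 (SD, n = 3) in WT, and the groups overlapped. Opa1 stayed below the 95th percentile of the control probe sets named as negative on every array. Probe positions were not analysed here, so Opa1 may not register the deletion. Each GTPase is therefore given array by array, with the WT 3 array read separately.

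Most of the GTPases lay among the control probe sets named as negative on the KO arrays. The share of these controls that read lower on the KO arrays was 51.2% to 57.3% for Iigp1, 62.3% to 67.5% for Gbp2, 62.0% to 77.2% for Gbp7, 65.9% to 74.8% for Gbp3 and 64.1% to 77.7% for Igtp. It was 78.0% to 88.0% for Irgm2, 85.7% to 93.9% for Irgm1 and 93.3% to 97.3% for Gbp4. Of the 8 genes, Gbp4 alone exceeded the 95th percentile of the controls on any KO array, namely on KO 1 and KO 4. On the WT arrays Gbp4 exceeded it on all 3, Gbp3, Gbp7, Irgm1 and Irgm2 on WT 1 and WT 2, Gbp2 and Igtp on WT 2, and Iigp1 on none. The log2 differences below are therefore given without a linear fold for these genes. The controls themselves had a median of 6.86, 6.49, 6.67 and 6.87 on KO 1 to 4, and 6.19, 6.26 and 6.71 on WT 1 to 3. These medians overlapped between the groups and were lowest on WT 1 and WT 2, and their part in the GTPase differences was not tested.

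Gbp2, Gbp3 and Gbp7 are the 3 measured GBP genes of a cluster on chromosome 3, in which Gbp5 and Gbp2b also lie. On average all 3 were lower in KO, by 1.31 to 1.85 log2 units, and for each the arrays WT 1 and WT 2 were far above the other 5. Gbp2, a prenylated GBP that coats parasite vacuoles, read 7.64, 7.33, 7.31 and 7.86 on KO 1 to 4, and 8.86, 9.65 and 8.03 on WT 1 to 3. All KO arrays lay below all WT arrays, with WT 3 0.17 above the highest KO array. KO minus WT came to -1.31 ± 0.344 (standard error, as for every difference below), which missed the threshold after adjustment over all genes (limma, adjusted p = 0.223). That value is the smallest adjusted p of the whole fit and is shared by 1763 genes. Wherever it recurs below, it therefore does not rank genes or lists.

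Gbp3 read 7.77, 7.48, 8.06 and 7.97 on KO 1 to 4, and 9.88, 10.70 and 8.27 on WT 1 to 3. Here too the groups did not overlap, and WT 3 lay 0.21 above the highest KO array. The difference was -1.80 ± 0.497 (limma, adjusted p = 0.223). Gbp7, which in mouse macrophages helps to assemble the phagocyte oxidase on phagosomes, read 8.32, 7.11, 7.76 and 8.47 on KO 1 to 4, and 9.95, 10.96 and 8.38 on WT 1 to 3. WT 3 lay between KO 1 and KO 4, so the groups overlapped, and the KO arrays spread over 1.36 log2 units, the second widest range among the 8 genes after that of Gbp4. The difference was -1.85 ± 0.584 (limma, adjusted p = 0.223). Set against WT 3 alone, the KO means of Gbp2, Gbp3 and Gbp7 differed by -0.50, -0.45 and -0.46.

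**Figure D1:**
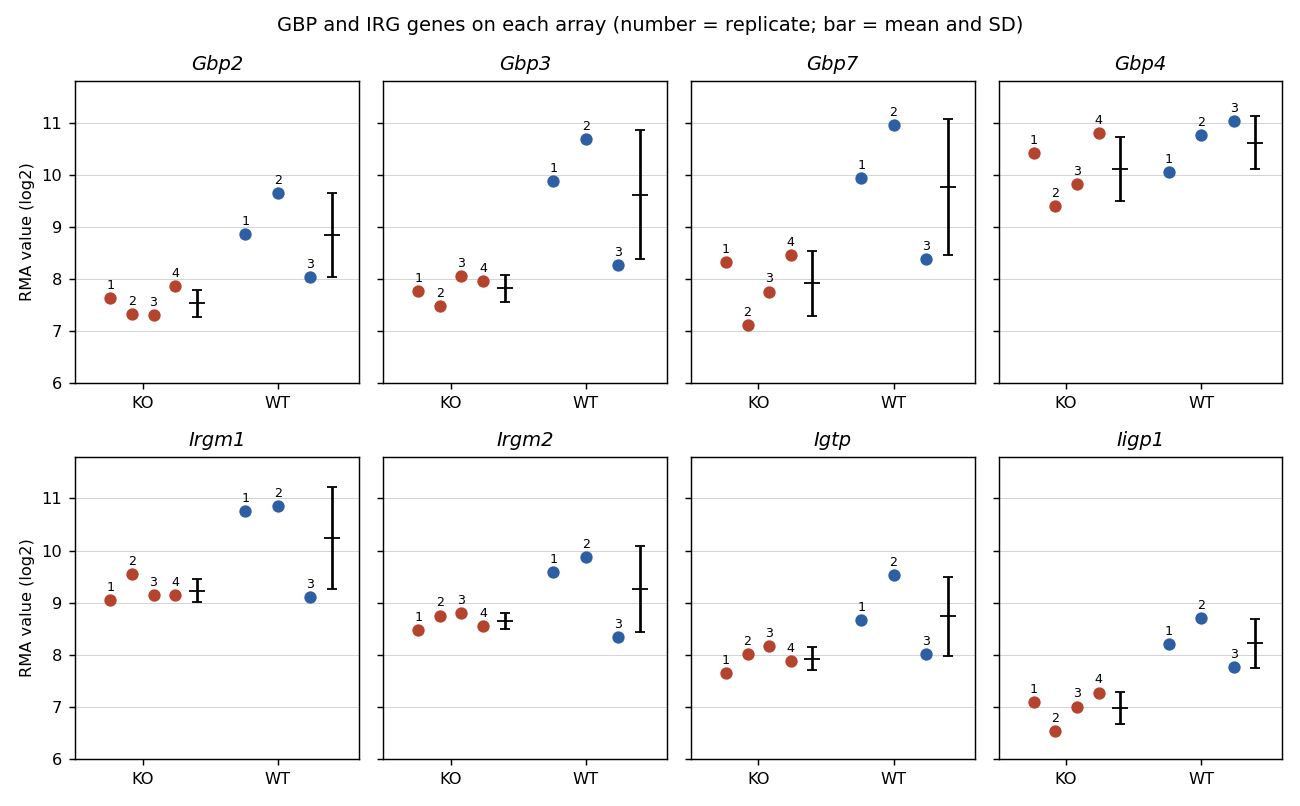
RMA values (log2, y axis) of the 8 measured GBP and IRG genes, 1 panel per gene, on the 4 KO and 3 WT arrays; numbers beside the points are replicates, and the bar beside each group is its mean with the SD. In every panel except that of Gbp4 the arrays WT 1 and WT 2 lie above the other 5, and WT 3 lies near or within the KO range for Gbp7, Irgm1, Irgm2 and Igtp.

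Gbp4 lies in a second cluster, on chromosome 5, and did not follow the genes of chromosome 3. It read 10.41, 9.40, 9.83 and 10.80 on KO 1 to 4, and 10.06, 10.76 and 11.03 on WT 1 to 3. WT 3 was the highest of all 7 arrays and WT 1 lay inside the KO range, so the groups overlapped. The difference was -0.51 ± 0.360 (limma, adjusted p = 0.425), and against WT 3 alone it was -0.93. It was -0.79 without WT 1, -0.30 without WT 3 and -0.27 without KO 2. Gbp9 and Gbp8, next to Gbp4 on chromosome 5, are no members but had the same highest and lowest KO arrays. Both exceeded the 95th percentile of the negative controls on 0 arrays, so background limits what their values show. Gbp8 read 9.50, 8.54, 9.06 and 9.91 on KO 1 to 4, and 8.50, 9.23 and 9.77 on WT 1 to 3. Gbp9 read 9.53, 8.68, 9.45 and 9.75 on KO 1 to 4, and 9.16, 8.97 and 9.75 on WT 1 to 3. In all 3 genes KO 4 was the highest and KO 2 the lowest KO array, and WT 3 was the highest WT array. The differences, KO minus WT, were 0.09 for Gbp8 and 0.06 for Gbp9, with adjusted p of 0.908 and 0.923 (limma). Genes of this cluster are near copies of each other, and whether their probe sets take up each other's RNA was not analysed here.

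Gbp4, Gbp7 and Iigp1, as well as Gbp8 and Gbp9, ordered the KO arrays as KO 4, KO 1, KO 3 and KO 2 from high to low, as did 5.66% of all genes. The list means of T and NK cell markers, B cell markers, cDC2 markers and interferon gamma targets had this order too. Gene by gene it was found in 2 of 9 T and NK markers, Cd4 and Ncr1, in 4 of 7 B cell markers, in 3 of 8 cDC2 markers and in 2 of 15 interferon gamma targets. The 9 T and NK markers averaged 8.46, 7.51, 8.35 and 8.65 on KO 1 to 4, and 7.42, 7.72 and 8.80 on WT 1 to 3. On WT 2 this mean was lower than on KO 1, KO 3 and KO 4, and Gbp4 was lower on WT 2 than on KO 4 alone. The 7 B cell markers averaged 8.42, 8.06, 8.25 and 8.66 on KO 1 to 4, and 7.72, 7.75 and 8.64 on WT 1 to 3. The part of these markers in the Gbp4 values was not tested. Cd274, the interferon gamma target that encodes PD-L1, read 11.20, 9.59, 10.36 and 10.99 on KO 1 to 4, also with its lowest value on KO 2, and 11.48, 11.72 and 11.22 on WT 1 to 3.

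The IRG regulators Irgm1, Irgm2 and Igtp had levels on WT 3 that lay within or below those of the KO arrays. Irgm1, which is needed for resistance of mice to mycobacteria and has been tied to mitochondrial quality control, read 9.05, 9.55, 9.15 and 9.14 on KO 1 to 4, and 10.75, 10.86 and 9.11 on WT 1 to 3. Every KO array lay below WT 1 and WT 2, but only KO 1 lay below WT 3. The difference was -1.01 ± 0.400 (limma, adjusted p = 0.238), but against WT 3 alone it was 0.12 and without WT 3 it was -1.58. Irgm2, a Golgi-associated regulator that restrains caspase-11 in mouse macrophages, read 8.48, 8.75, 8.80 and 8.55 on KO 1 to 4, and 9.58, 9.88 and 8.33 on WT 1 to 3. WT 3 was the lowest of the 7 arrays. The difference was -0.62 ± 0.334 (limma, adjusted p = 0.320), and against WT 3 alone it was 0.31. It was -0.31 without WT 2 and -1.08 without WT 3.

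Igtp, the regulator found on the endoplasmic reticulum and lipid droplets and tied to cross-presentation in mouse dendritic cells, read 7.65, 8.01, 8.18 and 7.87 on KO 1 to 4, and 8.67, 9.53 and 8.02 on WT 1 to 3. WT 3 lay between KO 2 and KO 3. The difference was -0.81 ± 0.319 (limma, adjusted p = 0.238), against WT 3 alone it was -0.09, and without WT 2 it was -0.42. The KO arrays of Irgm1, Irgm2 and Igtp spread over 0.32 to 0.52 log2 units, and all 3 had their lowest KO value on KO 1. KO 2 was the lowest KO array in 4 of the 8 genes, Gbp3, Gbp4, Gbp7 and Iigp1, and in 23.7% of all genes.

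Iigp1, the effector also called Irga6, had the smallest unadjusted p of the 8 genes (limma, unadjusted p = 0.00104). It read 7.09, 6.54, 7.01 and 7.27 on KO 1 to 4, and 8.21, 8.70 and 7.76 on WT 1 to 3. All KO arrays lay below all WT arrays, and WT 3 lay 0.48 above the highest KO array, the widest such gap of the 3 genes without overlap. The difference was -1.25 ± 0.247 (limma, adjusted p = 0.223), and against WT 3 alone it was -0.78.

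**Figure D2:**
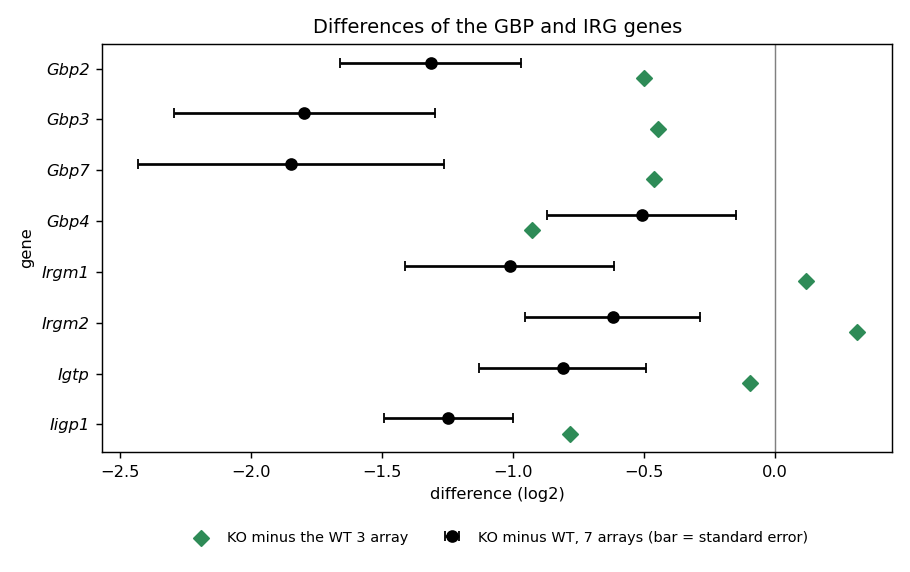
Differences of the 8 genes on the log2 scale (x axis), as KO minus WT over all 7 arrays with the limma standard error as the bar (black circles) and as KO minus the WT 3 array alone (green diamonds, no error as there is 1 WT array). All 8 circles lie below 0, while the diamonds of Irgm1 and Irgm2 lie above it and that of Gbp4 lies further below 0 than its circle.

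Counted together, 0 of the 8 genes and 0 of 19505 genes passed the adjusted threshold of 0.05 (limma, 0% called). At an unadjusted p under 0.05, 6 of the 8 were lower in KO and 0 higher, where 10.6% of all genes were lower and 8.98% higher at that threshold. In 3 of the 8, Gbp2, Gbp3 and Iigp1, every KO array lay below every WT array, against 5.92% of all genes, and in 0 of the 8 did every KO array lie above every WT array, against 7.85%. For each of those 3, permuting the group labels exactly in all 35 ways gave a two-sided p = 0.0571, the smallest this design allows. All 8 had a lower mean in KO, as did 40.1% of all genes, and the median difference was -1.13 for the 8 and 0.06 for all genes. In 7 of the 8, all but Gbp4, WT 1 and WT 2 lay above the other 5 arrays, as did 19.4% of all genes. WT 3 lay above every KO array in 4 of the 8, Gbp2, Gbp3, Gbp4 and Iigp1, as in 18.1% of all genes.

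The calls depended on which WT arrays were in the fit. Without WT 3, 7 of the 8 were called lower in KO (limma, adjusted p between 0.000125 and 0.00677), and Gbp4 was not (adjusted p = 0.590), while 13.8% of all genes were called lower. Without WT 1 and WT 2, in a fit that takes the spread of the KO arrays for that of the single WT array left, 0 of the 8 and 0 of all genes were called (limma, 0% called). The median difference of the 8 was then -0.46, with 6 of them lower, against 0.02 for all genes. At an unadjusted p under 0.05 that fit left Iigp1 alone (limma, unadjusted p = 0.0150), with 3.05% of all genes lower and 2.87% higher at that threshold. The melanocyte and cDC1 markers given above moved with the same 2 arrays, the melanocyte list also stood 1.27 above its KO mean on WT 3, and the part of these markers in the GTPase differences was not tested.

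Among 10 further IRG genes measured, 7 had a lower mean in KO and 3 a higher one, with a median difference of -0.15. In 2 the groups did not overlap, both lower in KO, against 5.92% of all genes lower without overlap. Tgtp2, an effector of the Irgb6 type, read 8.67, 8.92, 8.44 and 9.45 on KO 1 to 4, and 10.99, 11.21 and 9.52 on WT 1 to 3. All WT arrays lay above all KO arrays, and the difference was -1.70 ± 0.415 (limma, adjusted p = 0.223). Its neighbour Tgtp1 is a near copy, so the value may hold RNA of both. Gm4951, which lies in the cluster of Iigp1, had a difference of -0.70, with WT 3 0.38 above the KO mean and no overlap. On the KO arrays 46.5% to 50.7% of the negative controls read lower than Gm4951. Gm12250, known as Irgb10 and a neighbour of Igtp, followed Igtp: WT 1 and WT 2 stood 1.05 and 2.19 above the KO mean and WT 3 at it, and the difference was -1.08. In contrast, 9930111J21Rik1 and 9930111J21Rik2, which lie on either side of Tgtp1, differed by 0.07 and 0.04, and their values lay between -0.23 and 0.14 of the KO mean on every array. Irgc1 and Irgq, family members that interferon does not induce, differed by -0.02 and -0.10.

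**Figure D3:**
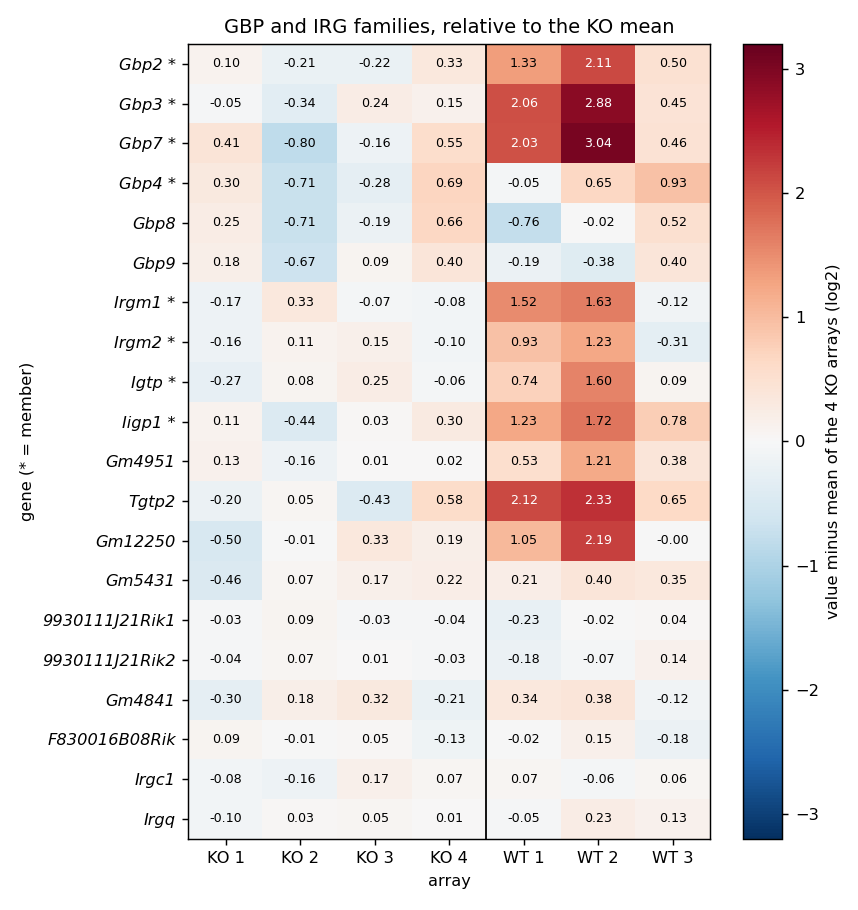
Values of 20 GBP and IRG genes (rows, members starred) on each array (columns, KO left of WT) minus the mean of the 4 KO arrays, in log2 units as colour and number. Gbp7 reaches 3.04 and Gbp3 2.88 on WT 2, Gbp4 peaks on WT 3 at 0.93, and 9930111J21Rik1, 9930111J21Rik2, Irgc1 and Irgq lie between -0.23 and 0.23 on every array.

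Interferon-induced GTPases of other families differed less between the means. Mx1 averaged 8.59 ± 0.44 (SD, n = 4) in KO and 8.86 ± 0.01 (SD, n = 3) in WT, Mx2 8.74 ± 0.28 and 9.16 ± 0.41, and the very large GTPase Gvin1 10.34 ± 0.37 and 10.54 ± 0.21. All 3 overlapped between groups, and the smallest adjusted p of the 3 was 0.308 (limma). Mx1 exceeded the 95th percentile of the negative controls on 0 arrays, Mx2 on WT 2 alone and Gvin1 on 6 arrays. Background therefore limits what the differences of Mx1 and Mx2 show. Of 20 measured type I interferon targets that are not GTPases, 19 had a lower mean in KO, against 40.1% of all genes. In 12 of the 20 every KO array lay below every WT array, against 5.92% of all genes. The median difference of the list was -1.30. Isg15, a ubiquitin-like modifier, averaged 8.26 ± 0.07 in KO and 9.65 ± 0.93 in WT, and Ifit2 6.81 ± 0.43 and 8.79 ± 1.22. On the KO arrays 39.1% to 60.5% of the negative controls read lower than Ifit2. Their list mean stood 1.53, 2.09 and 0.32 above the KO mean on WT 1 to 3, and that of the 8 GTPases 1.23, 1.86 and 0.35.

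As a list, interferon gamma targets outside the GTPases did not share that order, though Wars, Upp1 and Cd274 were highest on WT 1 and WT 2. Of 15 measured, 7 had a lower and 8 a higher mean in KO, with a median difference of 0.08. In each direction 2 genes were free of overlap, against 5.92% of all genes lower and 7.85% higher. Cxcl10, a chemokine for CXCR3, averaged 8.48 ± 0.40 (SD, n = 4) in KO and 9.40 ± 0.57 (SD, n = 3) in WT. Ciita, the transactivator of MHC class II genes, averaged 11.65 ± 0.05 in KO and 10.87 ± 0.52 in WT, and Tap1, the peptide transporter, 12.70 ± 0.05 and 12.47 ± 0.27. The lowest arrays were WT 1 and WT 2 in Ciita and WT 2 in Tap1. Wars read 10.41, 10.73, 10.72 and 10.46 on KO 1 to 4, and 11.69, 11.74 and 10.66 on WT 1 to 3.

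Of 17 measured genes of interferon signalling, 9 had a lower and 8 a higher mean in KO, with a median difference of 0.00. Ifngr1, the ligand-binding chain of the interferon gamma receptor, read 12.36, 12.40, 12.33 and 12.27 on KO 1 to 4, and 10.70, 10.46 and 12.16 on WT 1 to 3. The receptor was lowest on the 2 arrays on which 7 of the 8 GTPases were highest. Those 2 arrays also had the lowest means of cDC1 markers, and the part of cell content in the Ifngr1 values was not tested. Irf1, the factor that acts at the ISRE of GBP genes, read 11.07, 10.53, 10.58 and 11.26 on KO 1 to 4, and 11.23, 10.59 and 11.13 on WT 1 to 3, with a difference of -0.12. Irf9 differed by -0.03 and Stat2 by -0.40, and Socs1, an inhibitor of the receptor's kinases, by 0.02. Usp18, which limits type I interferon signalling and is itself induced by it, averaged 10.16 ± 0.20 (SD, n = 4) in KO and 11.26 ± 0.71 (SD, n = 3) in WT without overlap. The smallest adjusted p among the interferon signalling genes and both sets of targets was 0.223 (limma).

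**Figure D4:**
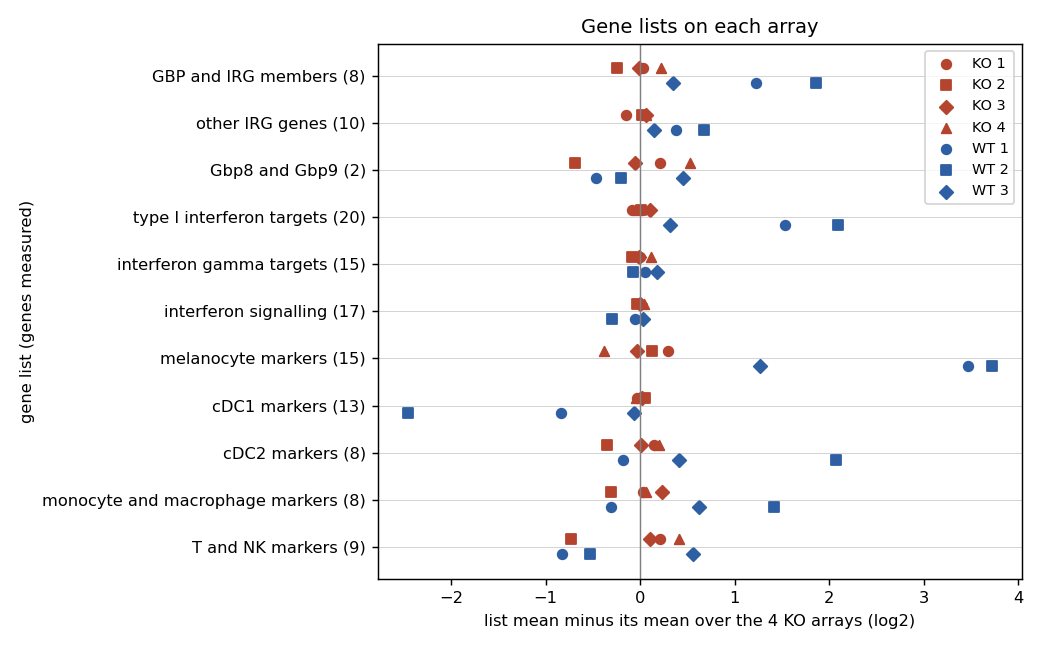
Mean of each gene list on each array minus its mean over the 4 KO arrays (x axis, log2), with KO arrays in red above WT arrays in blue and symbols for replicates. On WT 1 and WT 2 the GBP and IRG members stand at 1.23 and 1.86, the type I interferon targets at 1.53 and 2.09 and the melanocyte markers at 3.47 and 3.73, while the cDC1 markers stand at -0.84 and -2.46.

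Proteins of the ubiquitin-like conjugation system place GBPs and IRGs on vacuoles, and prenylation enzymes give some GBPs their membrane anchor. Of 20 such genes and partners measured, 11 had a lower and 9 a higher mean in KO, with a median difference of -0.03. Without overlap 3 were lower and 1 was higher, against 5.92% and 7.85% of all genes. Gabarapl1, a ubiquitin-like protein of the autophagy pathway, read 10.33, 9.97, 9.95 and 10.38 on KO 1 to 4, and 11.03, 11.52 and 10.65 on WT 1 to 3, with a difference of -0.91 and no overlap. Sqstm1, the adaptor p62, averaged 12.16 ± 0.11 (SD, n = 4) in KO and 12.62 ± 0.18 (SD, n = 3) in WT. Trim21, an antibody receptor and ubiquitin ligase, averaged 8.26 ± 0.11 in KO and 7.69 ± 0.45 in WT, with every KO array above every WT array. Trim21 exceeded the 95th percentile of the negative controls on 0 arrays, so background limits what this difference shows. Gabarapl2, needed in mouse cells for GBPs and IRG effectors to reach vacuoles, differed by 0.39 and Atg5 by 0.26. The farnesyltransferase subunits Fnta and Fntb differed by 0.05 and -0.63, and Pggt1b, a subunit of the other prenyl transferase, by -0.07. Fnta, Fntb and Pggt1b also exceeded that percentile of the controls on 0 arrays. The smallest adjusted p of these 20 genes was 0.223 (limma).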

How the data were processed

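RNA of 7 samples was hybridised to whole-transcript arrays. The deposited table holds log2 values of 28846 probe sets, which the authors summarised with RMA, and the submitters' processing notes name Affymetrix Expression Console 1.1. Which arrays were normalized jointly is not known from the labels. The log2 scale was inferred from the range of the values, 3.68 to 14.28. Precision is limited by the number of arrays.

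The platform annotation named 1 gene for 19572 of 22206 transcript probe sets, several for 0 and none for 2634. All 19572 matched GRCm38.p6 gene identifiers, and of probe sets with the same symbol the brightest on average was kept, leaving 19505 genes. Groups come from the sample titles. They were compared without covariates in limma 3.58.1 (lmFit, then eBayes; R 4.3.3), and p-values were adjusted by Benjamini-Hochberg across all genes, with 0.05 as the threshold. Differences are KO minus WT. The fit was tested on simulated data in which every array had the spread of the KO arrays. That test does not cover the spread among the WT arrays.

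Members and gene lists were chosen with earlier results of these data known. The rule named all members and, of each list, genes without overlap and the 3 of smallest unadjusted p. Not every list gene it named is described here, and Ddx58, Jak1, Lgals8 and Il1b are among those left out. Other genes were printed after their values were seen. Same-numbered WT and KO arrays did not visibly deviate together (r = -0.04, 0.05 and -0.02 across genes, which are not independent replicates). Whether the numbers pair the arrays is not known, as these r cannot exclude it. Alternatives left out arrays, used the replicate number as a block, changed the scaling (centring on medians, or quantiles), dropped dim genes, changed the variance model or weighted the arrays, kept all named probe sets, or asked for a difference of at least 1 log2.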

Additional observations from a re-analysis of the deposited data

How the results depend on the processing

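The lower mean in KO was kept for all 8 measured GTPases under every alternative run but one, the fit without WT 1 and WT 2 together, in which Irgm1 stood at 0.12 and Irgm2 at 0.31 (limma, adjusted p = 0.956 and 0.847). In that fit the median difference of the 8 was -0.46, against -1.13 with all arrays. The count of called GTPases was 0 in every setting except the fit without WT 3 and the fit with array weights, which called 7 each, all lower in KO. Array weights called 4458 of all genes (2453 lower, 12.6%) and 44 of 94 genes of the other lists, and gave WT 3 the lowest weight, 0.242. Leaving out 1 array at a time gave 0 to 4931 called genes, 0 to 7 called members and 0 to 49 called genes of the other lists, the higher figures all without WT 3. With the replicate block, in which KO 4 has no partner and drops out of the difference, 0 genes and 0 members were called and the median member difference was -1.16. Median centring moved the median difference of all genes from 0.06 to 0.12. The dim filter left Iigp1 out and tested 7 of the 8. Leaving out 1 array moved the difference by over 1.5 times for Gbp4, Igtp, Irgm1 and Irgm2, with the values given above. On the KO arrays Gbp4 alone exceeded the 95th percentile of the negative controls, on KO 1 and KO 4 but not on KO 2 and KO 3. Signal over background therefore limits what can be read for the other 7, and for Gbp4 on KO 2 and KO 3.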

Other observations

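Caspase-11 and the inflammasome, which act downstream of GBPs on bacterial lipopolysaccharide, showed no common direction. Of 7 measured genes 3 had a lower and 4 a higher mean in KO, with a median difference of 0.02. Casp4, which encodes caspase-11 in mice, averaged 9.19 ± 0.15 (SD, n = 4) in KO and 9.63 ± 0.47 (SD, n = 3) in WT, with every KO array below every WT array. Gsdmd, the pore-forming gasdermin, averaged 10.64 ± 0.03 in KO and 10.34 ± 0.21 in WT, with every KO array above every WT array. None passed correction over all genes (limma, smallest adjusted p = 0.223).

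The genes outside the family whose values were most like the mean of the 8 GTPases over the 7 arrays were Mthfd1l, a mitochondrial enzyme of folate metabolism (Pearson r = 0.997), Gm5169, Arhgap10, Hpgds, Apol7d and Myo5a (r = 0.994 to 0.995). The r serves only to rank the genes, since WT 1 and WT 2 stand apart from the other arrays and set most of it. Mthfd1l read 9.04, 8.76, 8.87 and 9.07 on KO 1 to 4, and 10.10, 10.67 and 9.28 on WT 1 to 3. Hpgds, a prostaglandin D2 synthase, averaged 8.27 ± 0.31 (SD, n = 4) in KO and 9.67 ± 0.98 (SD, n = 3) in WT. Myo5a, the motor that moves melanosomes, averaged 9.18 ± 0.18 in KO and 10.33 ± 0.73 in WT.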
